A study of Mus musculus with 18 samples.

Results

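The genes of the NRF2 antioxidant program, together with catalase, were followed through bone marrow-derived macrophages (BMDMs) that differed in genotype label and in the cells they had met. The 10 genes were listed by symbol and matched to their Ensembl identifiers, out of 49315 genes counted: Nfe2l2, Keap1, Cat, Nqo1, Gclc, Gclm, Txnrd1, Srxn1, Prdx1 and Slc7a11. RNA was sequenced from 18 libraries in 6 groups of 3 biological replicates. BMDMs labelled WT or HDAC3 KO were left untreated, or met human K562 leukemia cells for 45 min, were washed, and gave RNA 5 h later. The K562 cells were either apoptotic (ACs), having been exposed to UVB for 15 min and added 2 h afterwards, or had no UVB and counted as non-apoptotic (NACs). In the study's methods the control mice are HDAC3f/f, with LoxP sites around exon 7 of Hdac3, and the KO mice carry in addition a Cre driven from the lysozyme M (Lyz2) locus, which acts in myeloid cells. All cells of all groups were grown from bone marrow in medium conditioned by L929 cells. The methods give 3 animals per group and do not say whether 1 animal gave several treatments.

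NRF2, the product of Nfe2l2, is a transcription factor that is kept low by KEAP1, an adaptor that hands it to a ubiquitin ligase for degradation. When electrophiles or oxidants modify KEAP1, NRF2 escapes, enters the nucleus and binds antioxidant response elements together with a small MAF protein. Its best known targets make and recycle glutathione and thioredoxin, and macrophages, which produce hydrogen peroxide and digest engulfed cells, use both systems. Catalase, a peroxisomal enzyme, breaks hydrogen peroxide down without either of them.

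Because several of the 10 genes are textbook targets of NRF2, the promoters of the members were searched for TGACNNNGC, the core letters of the antioxidant response element, on both strands. The windows ran from 250 bases before to 50 bases after each RefSeq start (GRCm38.p6). Windows were found for 9 of the 10 genes (11 windows); there was no entry for Gclc. The letters were found in 5 of these 11 windows, each in a different gene, and in 12.4% of all 32851 windows. A match describes letters only, and a window without one says nothing about the factor. The stretches with a match are shown 5′ to 3′ on the strand of the gene, with the matched letters in capitals.
Nfe2l2: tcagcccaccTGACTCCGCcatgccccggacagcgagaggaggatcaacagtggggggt
Gclm: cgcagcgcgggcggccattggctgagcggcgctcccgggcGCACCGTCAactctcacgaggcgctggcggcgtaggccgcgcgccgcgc
Txnrd1: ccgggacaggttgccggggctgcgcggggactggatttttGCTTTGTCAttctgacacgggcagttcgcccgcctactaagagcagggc
Srxn1: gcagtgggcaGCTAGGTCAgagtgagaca
Prdx1: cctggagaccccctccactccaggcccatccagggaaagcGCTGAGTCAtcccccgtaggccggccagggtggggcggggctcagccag
The stretch of Nfe2l2 was chr2:75704855-75704913 on the reverse strand, and the match, on the strand of the gene, was centred 236 bases before the start. The others were read on the forward strand, at chr3:122245383-122245471 for Gclm, chr10:82859074-82859162 for Txnrd1, chr2:152105542-152105570 for Srxn1 and chr4:116685426-116685514 for Prdx1. Their matches lay on the opposite strand, so that the capitals show the reverse complement. They were centred 130 bases before the start in Gclm, 88 in Txnrd1 (in 1 of its 3 windows) and 129 in Prdx1, and 32 bases after it in Srxn1. The match in Prdx1, TGACTCAGC when read on its own strand, also holds TGACTCA, the letters of the AP-1 motif. The windows of Cat, Keap1, Nqo1 and Slc7a11 held no match.

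Gene counts summed to 4704491 in the smallest library, HDAC3 KO untreated replicate 1, and to 26421267 in the largest. Hdac3 itself lay between 3.38 and 48.7 CPM (the counts of a gene relative to a library total scaled by the TMM method) in the 9 libraries labelled WT and between 4.66 and 74.6 CPM in the 9 labelled HDAC3 KO. Its level did not separate the labels, and the counts cover the whole gene rather than the deleted exon, so each direction below is that of libraries labelled HDAC3 KO. Macrophage markers (10 of 10 with counts in each group) summed to between 11897 and 23935 CPM, against 226 to 1271 CPM for 10 neutrophil markers, 4.31 to 222 CPM for 6 fibroblast markers, 1.82 to 19.5 CPM for 6 B cell markers, 0.757 to 48.4 CPM for 10 erythroid markers and 0.265 to 2.85 CPM for 6 dendritic cell markers. The macrophage sum includes Lyz2, the locus that carries Cre in the KO mice. Between the genotypes Lyz2 is therefore no plain measure of macrophage content. Libraries also differed in how level moved with the GC content of genes. The slope, in log2 units per 10 percentage points of GC, was -0.72 to -0.38 in WT untreated, -0.18 to 0.42 in WT with NACs, -0.50 to 0.45 in WT with ACs, 0.17 to 0.87 in HDAC3 KO untreated, -0.49 to -0.25 in HDAC3 KO with NACs and -0.32 to 0.70 in HDAC3 KO with ACs. The slopes of the 2 genotypes did not overlap in untreated BMDMs or with NACs, and their order was opposite in the 2 conditions.

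Per length of gene, the 10 genes spanned a wide range of levels, in an order that depends on the length used. The counted exons can exceed the mean transcript, to unlike degrees, as in Gclm (6291 against 1444 bases) and Txnrd1 (3417 against 2273 bases). The median over the 18 libraries, in CPM per kilobase of counted exons, was 482 for Prdx1, 47.1 for Srxn1, 34.2 for Nfe2l2, 22.8 for Txnrd1, 14.5 for Gclm, 13.9 for Cat, 13.3 for Keap1, 4.25 for Gclc, 1.55 for Nqo1 and 0.148 for Slc7a11. Prdx1 was above Srxn1, Gclc above Nqo1 and Nqo1 above Slc7a11 in 18 of 18 libraries, and Txnrd1 above Gclm and Keap1 above Gclc in 17. The other neighbours in this order did not differ beyond their spread: Srxn1 was above Nfe2l2 in 14 libraries, Nfe2l2 above Txnrd1 in 12, Gclm above Cat in 7 and Cat above Keap1 in 10. From the lowest to the highest library, levels differed 4.39-fold (Srxn1) to 9.09-fold (Cat) in 9 of the genes, and 20.2-fold in Nqo1, which had as little as 1 count.

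The transcription factor and its inhibitor stood in opposite directions between the genotype labels in untreated BMDMs, with scaling by TMM alone. Neither difference was called once each library's trend with GC content and gene length was taken up. The log2 fold change was then -0.53 for Nfe2l2 and 0.79 for Keap1, as described below. Nfe2l2 (ENSMUSG00000015839; GRCm38 chromosome 2, 75675513 to 75704641) had 209, 130.1 and 147 CPM in WT untreated BMDMs (replicates 1, 2 and 3), 85.7, 132 and 59.6 CPM with NACs, and 177, 63.0 and 101 CPM with ACs. The HDAC3 KO libraries had 50.7, 70.5 and 59.6 CPM untreated, 229, 129.7 and 133 CPM with NACs, and 148, 165 and 69.0 CPM with ACs. All 3 HDAC3 KO untreated libraries lay below all 3 WT untreated ones, whereas with NACs and with ACs the genotypes overlapped. The share of all genes that separate in this way was not counted, here and for the genes below. In untreated BMDMs 4499 of 12101 genes had an unadjusted p under 0.05 between the genotypes with edgeR. Keap1 (ENSMUSG00000003308; chromosome 9, 21229730 to 21239361) had 28.2, 29.1 and 42.2 CPM in WT untreated BMDMs, 96.9, 43.5 and 74.8 CPM with NACs, and 38.7, 84.6 and 60.7 CPM with ACs. Under the HDAC3 KO label it had 79.9, 92.4 and 189 CPM untreated, 45.8, 53.3 and 51.1 CPM with NACs, and 89.8, 64.6 and 127 CPM with ACs. Here all HDAC3 KO untreated libraries lay above all WT untreated ones, and the genotypes overlapped in the other treatments. The exons of Keap1 share 510 bases with an antisense gene, Gm16754, and the strand setting of the counting is not given in the sources used here, so reads of the 2 genes cannot be told apart. Gm16754 itself was given at most 23 counts in a library.

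**Figure D1:**
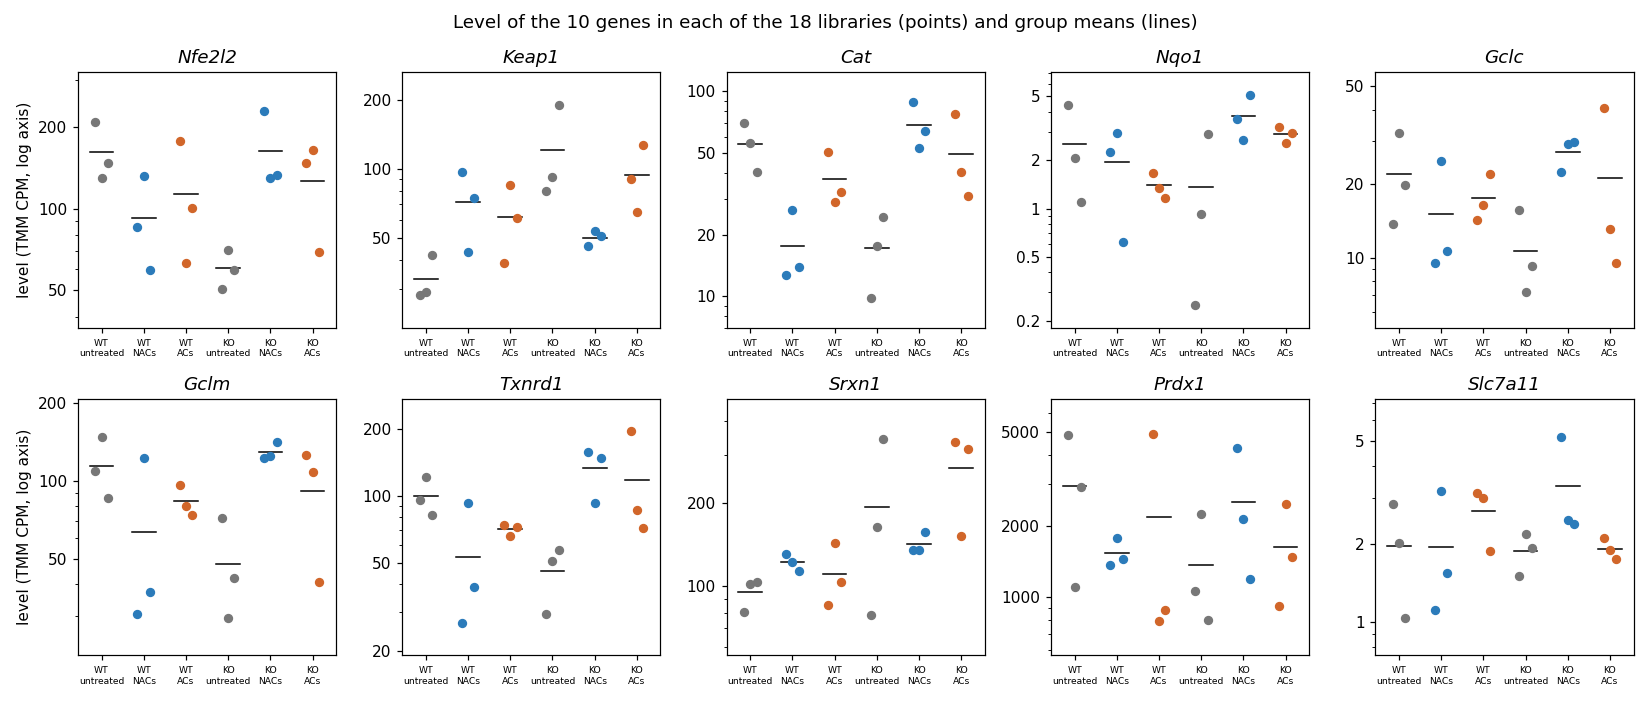
Level of each of the 10 genes (vertical axis, TMM-scaled CPM on a log axis) in the 6 groups (horizontal axis), with a point for each of the 3 libraries of a group and a line for their mean; KO stands for HDAC3 KO. The 3 points of Cat lie between 40.5 and 70.5 CPM in WT untreated BMDMs and between 9.80 and 24.5 CPM in HDAC3 KO untreated BMDMs, and with NACs the genotypes stand the other way round.

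The levels of catalase fell into separate ranges in 4 of the groups. Cat (ENSMUSG00000027187; chromosome 2, 103453849 to 103485160) had 70.5, 56.2 and 40.5 CPM in WT untreated BMDMs and 12.8, 26.4 and 13.9 CPM in WT BMDMs with NACs. In HDAC3 KO BMDMs it had 9.80, 17.6 and 24.5 CPM untreated and 89.0, 52.8 and 64.2 CPM with NACs. The low groups (WT with NACs, HDAC3 KO untreated) and the high groups (WT untreated, HDAC3 KO with NACs) did not overlap. With ACs the levels were 50.8, 28.8 and 32.2 CPM in WT and 77.8, 40.5 and 30.9 CPM in HDAC3 KO, and these overlapped.

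GCLC and GCLM are the catalytic and the modifier subunit of glutamate-cysteine ligase, the first enzyme of glutathione synthesis. Gclc (ENSMUSG00000032350; chromosome 9, 77754535 to 77794485) had 13.7, 32.3 and 19.7 CPM in WT untreated BMDMs, 9.52, 24.8 and 10.6 CPM with NACs and 14.2, 16.4 and 21.9 CPM with ACs. Under the HDAC3 KO label it had 15.6, 7.20 and 9.25 CPM untreated, 22.4, 29.1 and 29.6 CPM with NACs and 40.9, 13.1 and 9.52 CPM with ACs. The 2 genotypes overlapped in every treatment, with WT replicate 2 standing highest of its group both untreated and with NACs. Gclm (ENSMUSG00000028124; chromosome 3, 122245557 to 122270732) had 109, 147 and 86.1 CPM in WT untreated BMDMs, 30.8, 123 and 37.3 CPM with NACs and 96.5, 79.7 and 74.0 CPM with ACs. For HDAC3 KO the levels were 71.8, 29.7 and 42.1 CPM untreated, 122, 125 and 142 CPM with NACs and 126, 108 and 40.9 CPM with ACs. All HDAC3 KO untreated libraries were below the WT ones, and 1 WT library with NACs, replicate 2, stood with the HDAC3 KO libraries. Exons of Gclm share 296 bases with the antisense gene Gm17494 (at most 184 counts in a library) and 244 bases with Gm6061 on the same strand (0 counts in every library), with the limit named for Keap1.

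SLC7A11, the cystine importer that supplies cysteine for glutathione, was barely detected in these cells. Slc7a11 (ENSMUSG00000027737; chromosome 3, 49892526 to 50443614) had between 1.04 and 5.17 CPM, from 6 to 111 counts per library, and the highest level was that of HDAC3 KO with NACs replicate 1. Nqo1 (ENSMUSG00000003849; chromosome 8, 107388225 to 107403206), the quinone reductase often used as the marker of NRF2 activity, was also low. It had 4.44, 2.07 and 1.10 CPM in WT untreated BMDMs, 2.24, 2.97 and 0.621 CPM with NACs and 1.68, 1.34 and 1.17 CPM with ACs. In HDAC3 KO BMDMs it had 0.251, 0.919 and 2.93 CPM untreated, 3.63, 2.69 and 5.08 CPM with NACs and 3.23, 2.56 and 2.97 CPM with ACs. The genotypes did not overlap with ACs, where Nqo1 was not called (edgeR adjusted p = 0.285), and overlapped in the other treatments. The value of 0.251 CPM rests on 1 count.

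TXNRD1 is the cytosolic thioredoxin reductase, PRDX1 the peroxiredoxin that spends thioredoxin to remove peroxide, and SRXN1 the sulfiredoxin that repairs overoxidized peroxiredoxins. Txnrd1 (ENSMUSG00000020250; chromosome 10, 82859206 to 82897724) had 95.4, 122 and 81.9 CPM in WT untreated BMDMs, 26.6, 92.8 and 39.0 CPM with NACs and 74.0, 65.7 and 72.3 CPM with ACs. The HDAC3 KO libraries had 29.4, 50.8 and 57.1 CPM untreated, 158, 93.0 and 147 CPM with NACs and 195, 86.7 and 71.8 CPM with ACs. Untreated, the HDAC3 KO libraries were all below the WT ones; with NACs they were all above them, by a small margin for 1 library of each. Srxn1 (ENSMUSG00000032802; chromosome 2, 152105516 to 152111376) had 80.5, 101 and 103 CPM in WT untreated BMDMs, 131, 123 and 114 CPM with NACs and 85.6, 143 and 104 CPM with ACs. Srxn1 in HDAC3 KO BMDMs stood at 78.1, 164 and 343 CPM untreated, 135, 135 and 157 CPM with NACs and 336, 152 and 317 CPM with ACs. The HDAC3 KO libraries lay above the WT ones with ACs (edgeR adjusted p = 0.0963) and with NACs (0.611), not called in either, and spread widely untreated. Prdx1 (ENSMUSG00000028691; chromosome 4, 116685544 to 116700822) had 4834, 1111 and 2915 CPM in WT untreated BMDMs, 1367, 1786 and 1457 CPM with NACs and 4901, 797 and 882 CPM with ACs. The corresponding HDAC3 KO levels were 1063, 2241 and 806 CPM untreated, 4268, 2146 and 1191 CPM with NACs and 919, 2486 and 1477 CPM with ACs. The genotypes overlapped in every treatment, and in 3 groups the highest library was more than 3 times the lowest.

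The first comparison asked how the genotypes differed before any cells were added. In untreated BMDMs labelled HDAC3 KO, Cat and Nfe2l2 were lower and Keap1 was higher than in WT. Cat had 17.3 ± 7.36 CPM (SD, n = 3) against 55.7 ± 15.0 CPM, a log2 fold change of -1.79 (SE 0.461, edgeR adjusted p = 0.0335). Nfe2l2 had 60.3 ± 9.88 against 162 ± 41.5 CPM, a log2 fold change of -1.52 (SE 0.410, edgeR adjusted p = 0.0370). Keap1 had 120.5 ± 59.7 against 33.2 ± 7.85 CPM, a log2 fold change of 1.75 (SE 0.432, edgeR adjusted p = 0.0307). Each adjusted p came from edgeR's quasi-likelihood test over all genes that passed its filter on low counts, with Benjamini-Hochberg adjustment and a threshold of 0.05, and all 10 members passed the filter in every comparison. These 3 of 10 members (30.0%) compare with 11.6% of the 12101 genes tested; 1 member was higher where 3.04% of genes were, and 2 were lower where 8.56% were. This split of all genes also depended on the scaling, with 368 called higher and 1036 lower by TMM, 749 and 888 with the size factors of DESeq2, and 54 and 2351 with library totals. The lowest adjusted p among the other 7 was 0.0546, for Gclm (log2 fold change -1.40), and 8 of the 10 fitted values were below 0, with a median of -1.17 against 0.06 over all genes. The calls depended on single libraries. None of the 10 was called without WT untreated replicate 1 (beside 0.608% of genes), 2 or 3 (0% each). Nor was any called without HDAC3 KO untreated replicate 2 (1.98% of genes) or 3 (0%). Cat lay between -2.04 and -1.59 in all fits that left out 1 library. Without HDAC3 KO untreated replicate 1, the smallest library, 7 members were called beside 46.3% of genes. The call of Nfe2l2 was also lost with the replicate number as a block (edgeR adjusted p = 0.0529) and without the filter on low counts (0.0573), and that of Keap1 with library totals alone (0.0555). When the fit also took up each library's trend with GC content and gene length as an offset, no member and 0% of genes were called. Cat was then at -2.18 (edgeR adjusted p = 0.0693), Keap1 at 0.79 and Nfe2l2 at -0.53. Of 10 macrophage markers 1, Lyz2, was called lower in HDAC3 KO, with the limit named above for the locus that carries Cre. The sum of 6 B cell markers did not overlap between the genotypes (2.52 to 5.16 CPM in WT, 6.22 to 15.1 CPM in HDAC3 KO, with 3 tested and none called). The part of these markers in the differences was not tested. In bulk RNA, fewer cells of a type and less RNA per cell cannot be told apart, here and in each comparison that follows.

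**Figure D2:**
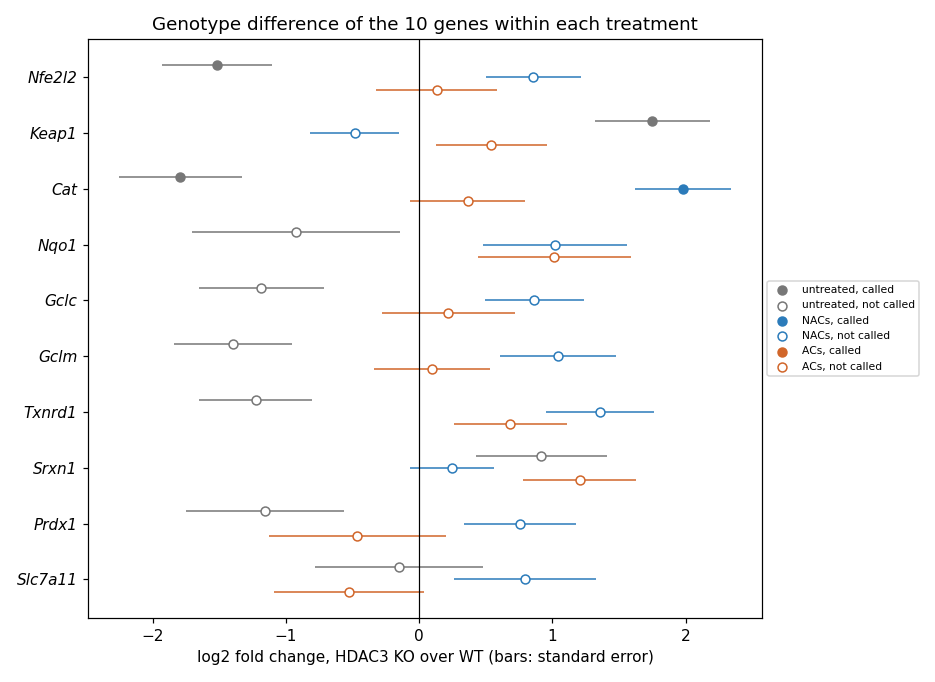
Log2 fold change of the 10 genes between libraries labelled HDAC3 KO and WT (horizontal axis, bars give the standard error) in untreated BMDMs, with NACs and with ACs; filled points passed the adjusted p threshold and open points did not. Cat lies at -1.79 untreated and at 1.98 with NACs, and no gene passed with ACs.

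With NACs the difference in catalase had the other sign. Cat had 68.7 ± 18.5 CPM in HDAC3 KO and 17.7 ± 7.58 CPM in WT BMDMs, a log2 fold change of 1.98 (SE 0.361, edgeR adjusted p = 0.00858), and by its p it was the gene with rank 7 of the 11923 tested. It was the only member called (1 of 10, against 0.864% of all genes, and 0.537% called higher). Txnrd1, with 1.36 (SE 0.405, edgeR adjusted p = 0.0965), came next, 9 of the 10 fitted values were above 0, and their median was 0.86 against 0.00 over all genes. Cat was not called without WT with NACs replicate 1 (no gene was) or replicate 3 (0.126% of genes were). Without replicate 2 of the same group 5 members and 24.6% of genes were called. The log2 fold change of Cat lay between 1.74 and 2.49 in all fits that left out 1 library. In a fit of all 18 libraries Cat had 1.95 (edgeR adjusted p = 0.189), and no gene was called. With the GC and length offset it was 1.97 (edgeR adjusted p = 0.114), and no member was called beside 0.00839% of genes.

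With ACs, the condition in which engulfment is studied, no member was called in the genotype comparison (0 of 10, against 3.75% of 12304 genes with edgeR). Among the 10, Srxn1 alone had an unadjusted p under 0.05, beside 2988 of the 12304 genes. It had 268 ± 101 CPM in HDAC3 KO and 111 ± 29.4 CPM in WT libraries, a log2 fold change of 1.20 (SE 0.421, edgeR adjusted p = 0.0963). Without HDAC3 KO with ACs replicate 1 no gene was called, and Srxn1 was at 1.08 (edgeR adjusted p = 0.345). Srxn1 was called without HDAC3 KO with ACs replicate 2 (1.54, edgeR adjusted p = 0.0233, beside 13.3% of genes) and by DESeq2's Wald test. It was also called with the GC and length offset, where it was 1.52 (SE 0.292, edgeR adjusted p = 0.0138) beside 10.4% of genes called. The other fitted values lay between -0.53 (Slc7a11) and 1.01 (Nqo1), and that of Cat was 0.37 (edgeR adjusted p = 0.628). The sum of the macrophage markers was 11897 to 14285 CPM in WT and 17398 to 20995 CPM in HDAC3 KO, with no marker called, and of 9 neutrophil markers tested 1, Elane, was called lower. With the offset 1 macrophage marker and 1 neutrophil marker were called lower. Their part was not tested. Averaged over the 3 treatments with treatment as a term, edgeR called no member (0 of 10) and 0% of 13662 genes, although 1841 genes and 1 member, Srxn1 (log2 fold change 0.84, SE 0.280, edgeR adjusted p = 0.281), had an unadjusted p under 0.05; DESeq2 called 112 genes and Srxn1, with an adjusted p for 7 of the 10 members.

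Within each genotype, NACs were set against no treatment, and these comparisons share their libraries with those above. In WT BMDMs Cat fell with NACs (log2 fold change -1.72, SE 0.383, edgeR adjusted p = 0.00921), the only member called (1 of 10, against 8.52% of 11912 genes, and 4.33% called lower). Keap1 had 1.06 (edgeR adjusted p = 0.0552). The genes called in WT were 499 higher and 516 lower, against 699 and 394 with the size factors of DESeq2. Of 6 B cell markers 3 were tested in this contrast and 1, Cd79b, was called higher, with their sum at 2.52 to 5.16 CPM untreated and 5.26 to 19.5 CPM with NACs; their part in the fall of Cat was not tested. In HDAC3 KO BMDMs 4 of 10 members rose with NACs, against 6.54% of 12143 genes called and 6.2% called higher: Cat (2.17, SE 0.428, edgeR adjusted p = 0.0353), Txnrd1 (1.73, SE 0.387, 0.0386), Nfe2l2 (1.63, SE 0.362, 0.0383) and Gclm (1.61, SE 0.394, 0.0454). Gclc missed the threshold with 1.52 (edgeR adjusted p = 0.0519), and Keap1 had -1.08 (edgeR adjusted p = 0.0951). All genes called in HDAC3 KO were 753 higher and 41 lower with NACs, against 1260 and 803 by DESeq2's Wald test, 654 and 193 in a fit of all 18 libraries, and 2089 and 23 with library totals. In the same contrast 1 of 10 macrophage markers, Lyz2, was called higher, and no B cell or fibroblast marker was called. The B cell sum was 6.22 to 15.1 CPM untreated and 1.82 to 5.27 CPM with NACs, and the fibroblast sum was 67.6 to 102 CPM untreated and 7.22 to 42.7 CPM with NACs, without overlap in either. Their part in the rise of the 4 members was not tested. In WT the call of Cat was lost without untreated replicate 1 or 2 or NACs replicate 1 or 3, beside 0.169% to 0.375% of genes called. Its value lay from -2.10 to -1.51 over the 6 fits that left out 1 library. The call was also lost with library totals (-2.04, edgeR adjusted p = 0.0667) and in a fit of all 18 libraries (-1.65, 0.145), each with no gene called. Without NACs replicate 2 the count was 6 members beside 34.2% of genes. In HDAC3 KO no member and no gene was called without untreated replicate 2 or 3 or any 1 of the NACs replicates, with Cat from 1.87 to 2.38, and without untreated replicate 1 the count was 6 members beside 35.5% of genes. The replicate block and the size factors of DESeq2 each ended all 4 calls in HDAC3 KO, with no gene called, and Cat was then at 2.19 (edgeR adjusted p = 0.0894) and 1.99 (0.0624). With the GC and length offset no member was called in either genotype, beside 0% of genes in both, and Cat had -1.82 in WT and 2.44 in HDAC3 KO.

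The test of whether the NACs response differed between genotypes joined these 12 libraries in 1 interaction term, the log2 change from untreated to NACs in HDAC3 KO minus that in WT. It was above 0 and called for Cat, Txnrd1, Gclm, Nfe2l2, Gclc and Prdx1, and below 0 and called for Keap1. Cat had the largest value of the 10, 4.02 (SE 0.608, edgeR adjusted p = 0.000647), with rank 19 by p of 13005 genes. Txnrd1 had 2.84 (SE 0.624, edgeR adjusted p = 0.00267), Gclm 2.66 (SE 0.672, 0.00642), Nfe2l2 2.62 (SE 0.545, 0.00194), Gclc 2.28 (SE 0.636, 0.0102) and Prdx1 2.19 (SE 0.745, 0.0296), while Keap1 had -2.03 (SE 0.538, 0.00778). Nqo1 (2.13, SE 0.989, edgeR adjusted p = 0.0942), Slc7a11 (1.20) and Srxn1 (-0.45) did not pass. The count of 7 of 10 members stands beside 34.8% of all genes tested; 6 members were called above 0 where 22.1% of genes were, and 1 below 0 where 12.8% were. The split of all genes depended on the scaling: 2869 were called above 0 and 1661 below with TMM, 2284 and 2726 with the size factors of DESeq2, 2449 and 3111 by DESeq2's Wald test, and 3601 and 400 with library totals. The median of the 10 was 2.23 against 0.12 over all genes. Between 5 and 7 members were called when any 1 library was left out, beside 22.3% to 46.2% of genes. Cat, Txnrd1, Gclm, Nfe2l2 and Keap1 were called in all 12 of these fits, Gclc (1.60 to 2.89) was lost without WT untreated replicate 2 or WT with NACs replicate 1 or 3, and Prdx1 (1.33 to 2.52) was lost in 7 of the 12: without WT untreated replicate 1, WT with NACs replicate 1 or 3, HDAC3 KO untreated replicate 1 or 3, and HDAC3 KO with NACs replicate 1 or 2. Prdx1 was also lost with the size factors of DESeq2 (edgeR adjusted p = 0.0717) and in a fit of all 18 libraries (0.129), and Keap1 with library totals alone (0.0512).

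The GC trend of the libraries moved with this same contrast, and the members differ in GC content, from 43.7% of bases in Prdx1 and 45.0% in Nfe2l2 through 51.9% in Cat to 58.5% in Keap1 and 59.8% in Srxn1. With the GC and length offset 4 of 10 members were called, beside 13.3% of genes. Cat had 4.36 (SE 0.532, edgeR adjusted p = 0.00327), Txnrd1 2.94 (SE 0.572, 0.00621), Gclm 2.51 (SE 0.695, 0.0294) and Gclc 2.15 (SE 0.642, 0.0378). The other 3 lost their call: Nfe2l2 was at 1.18 (edgeR adjusted p = 0.0802), Prdx1 at 0.73 and Keap1 at -0.63. Srxn1 and Slc7a11, called in neither fit, changed sign, from -0.45 to 1.25 and from 1.20 to -0.43. Over the 18 libraries Pearson's r between the log2 level and the GC slope was 0.949 for Keap1 and 0.629 for Srxn1, and -0.848 for Nfe2l2, -0.808 for Gclm, -0.652 for Cat, -0.602 for Prdx1, -0.576 for Gclc, -0.540 for Txnrd1, -0.353 for Slc7a11 and -0.282 for Nqo1. These are descriptions over libraries that also share their depth and scaling, and 24.8% of 13662 genes had an r below -0.5 and 25.9% one above 0.5. B cell markers also moved with the contrast: of 6, 4 were tested and 2 called below 0 (Cd79a and Cd79b), and their sum was 2.52 to 5.16 CPM in WT untreated, 5.26 to 19.5 CPM in WT with NACs, 6.22 to 15.1 CPM in HDAC3 KO untreated and 1.82 to 5.27 CPM in HDAC3 KO with NACs, with Pax5 at 0 in the last of these groups. Of 10 macrophage markers, 2 were called above 0 (Itgam and Lyz2) and 3 below (C1qa, Cd14 and Spi1), and 1 with the offset. Lyz2 has the limit named above for the locus that carries Cre. Of 10 neutrophil markers Ltf was called below 0, with 1 called below 0 with the offset as well. The part of these markers in the result was not tested.

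**Figure D3:**
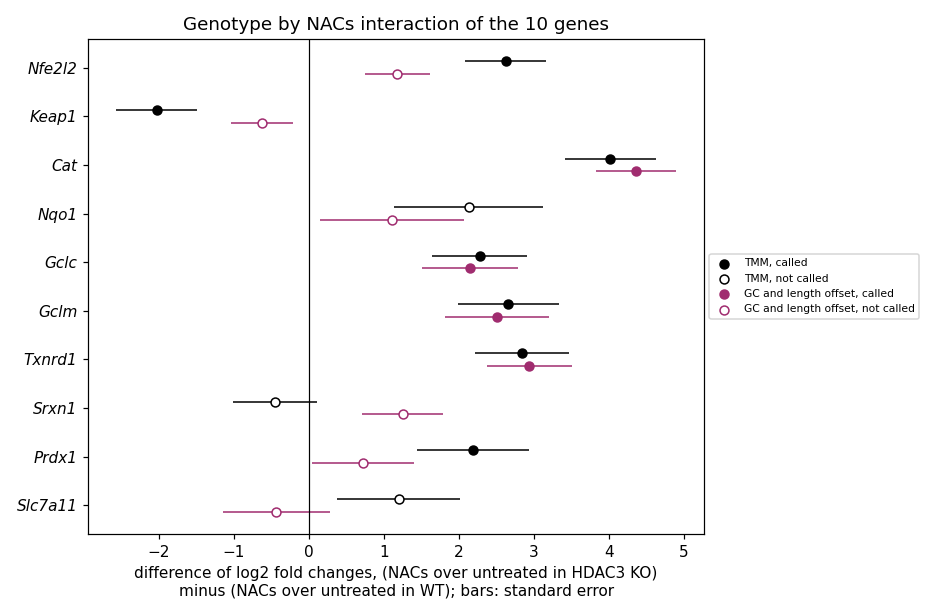
Interaction of genotype label and NACs for the 10 genes (horizontal axis, difference between 2 log2 fold changes, bars give the standard error), with TMM scaling alone (black) and with the GC and length offset (purple); filled points passed the adjusted p threshold. Cat, Txnrd1, Gclm and Gclc passed in both, and Nfe2l2, Keap1 and Prdx1 moved toward 0 with the offset.

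**Figure D4:**
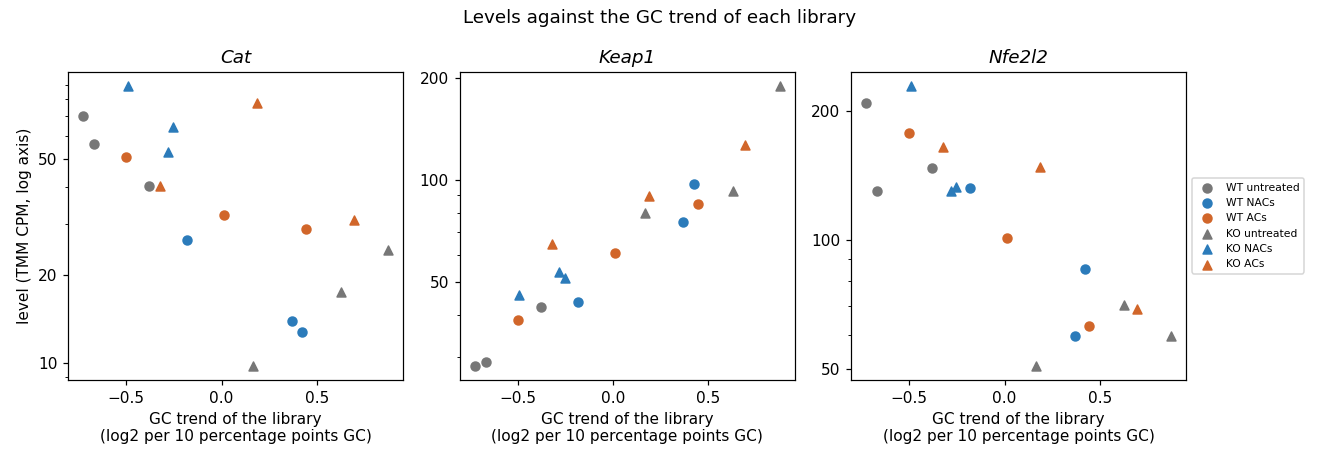
Level of Cat, Keap1 and Nfe2l2 (vertical axis, TMM-scaled CPM on a log axis) against the GC slope of each of the 18 libraries (horizontal axis, log2 units per 10 percentage points of GC); circles are libraries labelled WT, triangles those labelled HDAC3 KO, and colours give the treatment. The points of Keap1 follow the slope closely (r = 0.949), and those of Cat less so (r = -0.652).

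ACs were compared with both other conditions. Against NACs in WT BMDMs edgeR called no member (0 of 10) and 0% of 11844 genes; 493 genes and 1 member had an unadjusted p under 0.05, and DESeq2 called none of either. That member was Cat, with 1.11 (SE 0.395, edgeR adjusted p = 0.898). Against NACs in HDAC3 KO BMDMs no member was called by edgeR or DESeq2, against 7.38% of 12244 genes with edgeR. Keap1 (0.91, SE 0.374, edgeR adjusted p = 0.126) and Srxn1 (0.92) had an unadjusted p under 0.05, beside 3095 of the 12244 genes. Without HDAC3 KO with ACs replicate 1 no member and 0% of genes were called. Without replicate 2 of that group the count was 2 members beside 23.9% of genes. Against untreated WT BMDMs edgeR called 0 of 10 members and 0% of 12199 genes, with 1551 genes and 1 member, Keap1 (0.80, SE 0.324, edgeR adjusted p = 0.393), under an unadjusted p of 0.05, and DESeq2 called 4 genes and no member. Against untreated HDAC3 KO BMDMs it called 0 of 10 members and 0% of 12136 genes; 1761 genes and 3 members, Cat (1.67, SE 0.536, edgeR adjusted p = 0.311), Txnrd1 (1.52) and Nfe2l2 (1.23), had an unadjusted p under 0.05, and DESeq2 called 13 genes, but gave an adjusted p to 1203 of its 24099 genes and to 2 of the 10 members, so it says nothing of Cat.

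Whether the AC response differed between genotypes was tested in the same way. Relative to NACs, edgeR called 0 of 10 members and 0.0765% of 13076 genes, and Cat had -1.54 (SE 0.568, edgeR adjusted p = 0.145). An unadjusted p under 0.05 was found for 3 members and 2620 genes, and DESeq2 called 741 genes (2.65% of its genes) and 0 members. Without WT with NACs replicate 2 there were 2 called members beside 5.63% of genes. Relative to no treatment edgeR called 0 of 10 members and 0% of 13225 genes, with 3187 genes and 4 members under an unadjusted p of 0.05. Cat had 2.08 (SE 0.630, edgeR adjusted p = 0.112), and DESeq2 called 1249 genes and, of the 8 members it gave an adjusted p, Cat and Txnrd1. Without HDAC3 KO with ACs replicate 3 edgeR called 2 members and 8.11% of genes.

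Other genes around NRF2 were read from lists set by function, and their counts in the NACs interaction stand beside the same 22.1% of genes called above 0 and 12.8% below 0 (13.3% in all with the offset). Among 10 regulators of NRF2 (such as Bach1, which competes with it for the same elements, and Cul3, the scaffold of the ligase that KEAP1 serves), 2 were called in the NACs interaction, Bach1 (3.27, SE 0.626, edgeR adjusted p = 0.00126) and Cul3 (2.01, SE 0.539, 0.00827), both above 0. Bach1 was also the regulator called with NACs between the genotypes (1.54, edgeR adjusted p = 0.0454) and in WT between NACs and untreated (-1.37, 0.0277), and with the offset 1 of the 10 regulators was called in the interaction. Among 20 further targets of NRF2, 6 were above 0 in the interaction (Me1 4.51, Gsta3 4.27, Idh1 3.11, Ugdh 2.42, Gsr 2.35 and Mgst1 1.79) and 5 below it (Tkt -1.86, Gstm1 -1.82, Ephx1 -1.75, Ftl1 -1.68 and Gstp1 -1.65), and their median was -0.62 against 0.12 over all genes. Those above 0 include the cytosolic enzymes Me1 and Idh1, glutathione reductase (Gsr) and the glutathione transferase Gsta3. Those below 0 include the ferritin light chain Ftl1 and the glutathione transferases Gstm1 and Gstp1, so transferases were called in both directions. The 11 called targets were thus divided in direction in this contrast, and with the offset 3 were called above 0 and 1 below.

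Most of the called antioxidant enzymes outside this program had the opposite sign to Cat. Of 16, 1 was above 0 in the NACs interaction, the glutaredoxin Glrx (3.06, edgeR adjusted p = 0.00160), and 6 were below 0: Gpx1 (-2.35), the mitochondrial pair Txnrd2 (-2.13) and Txn2 (-2.06), Gpx3 (-2.04), Gss (-1.43) and Prdx2 (-1.40). Their median was -1.14, and with the offset 1 was called above 0 and 2 below. Of 15 further genes of the peroxisome, the organelle of catalase, 2 were above 0 (Abcd3 2.73 and Hsd17b4 1.85) and 2 below (Pex14 -1.64 and Acaa1a -1.37), with a median of -0.20, and with the offset none was called. Of 11 targets of ATF4, the stress factor that shares Slc7a11 with NRF2, 10 were tested and 5 were below 0 (Ddit3, Trib3, Sesn2, Phgdh and Shmt2, from -2.44 to -1.50), with a median of -1.43; with the offset 2 were called below 0.

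In the genotype comparisons the counts of these lists stand beside 11.6% of all genes called untreated, 0.864% with NACs and 3.75% with ACs. In untreated BMDMs Idh1 (-1.85, edgeR adjusted p = 0.0327) was called lower, 1 of 20 further targets, and of the 16 other antioxidant enzymes Glrx (-1.57, 0.0413) was lower and Txnrd2 (1.65, 0.0338) higher. No gene was called there without WT untreated replicate 2 or 3 or HDAC3 KO untreated replicate 3. With NACs Gsta3, a glutathione transferase, was called higher (2.47, edgeR adjusted p = 0.0443), 1 of 20, as was Bach1, 1 of 10 regulators. Both calls were lost without WT with NACs replicate 1, where no gene was called. With ACs the single call over the 5 lists was Chac1, an enzyme that degrades glutathione, which was lower in HDAC3 KO (-2.23, SE 0.545, edgeR adjusted p = 0.0337), 1 of 10 ATF4 targets tested. The call of Chac1 was lost without HDAC3 KO with ACs replicate 1, where no gene was called. With the offset the lists held no call untreated or with NACs, and with ACs, where 10.4% of genes were called, they held 1 regulator lower, 2 ATF4 targets lower, and higher 1 further target, 1 antioxidant enzyme and 1 peroxisomal gene.

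Within the genotypes, NACs against no treatment also reached genes of these lists. In WT, beside 8.52% of all genes, 2 of 20 further targets were called higher (Gstp1 1.25 and Ephx1 1.25) and 3 lower (Gsta3 -2.20, Idh1 -1.28 and Abcc1 -1.16), Abcc1 being an exporter of glutathione conjugates. Of the 16 other antioxidant enzymes Gpx1 (1.38), Txnrd2 (1.32) and Txn2 (1.28) were higher and Glrx (-1.26) was lower, and of 10 ATF4 targets tested Trib3 (1.41), Ddit3 (1.21) and Phgdh (1.15) were higher. In HDAC3 KO, beside 6.54% of all genes, the calls were Idh1 (1.70) and Ugdh (1.53) of the further targets, Glrx (1.69) and the peroxisomal transporter Abcd3 (1.77), each of them higher. With the offset no gene of the lists was called in either genotype. For ACs against NACs in HDAC3 KO, beside 7.38% of all genes, Nfe2l1, a relative of Nfe2l2, was higher (1.19) and Rbx1, a subunit of the KEAP1 ligase, lower (-1.43) among the 10 regulators, and Gsta3 (-2.88) was lower among the 20 further targets. Each of these calls was lost without HDAC3 KO with ACs replicate 1, where no gene was called. With the offset, beside 5.69% of genes, 1 regulator was lower, 1 further target was higher and 1 lower, and 1 antioxidant enzyme and 1 peroxisomal gene were higher. In this contrast 2 of 5 fibroblast markers tested, Col1a2 and Col3a1, and 1 of 10 neutrophil markers, Ltf, were called higher (none with the offset), and the fibroblast sum was 7.22 to 42.7 CPM with NACs and 75.6 to 222 CPM with ACs. Their part was not tested.

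Over the 18 libraries the members were related to each other to different degrees. On log2 CPM, Pearson's r was highest between Cat and Txnrd1 (0.934), Gclc and Gclm (0.862) and Nfe2l2 and Cat (0.837), and lowest between Nfe2l2 and Keap1 (-0.739) and Gclm and Keap1 (-0.706). Keap1 and Srxn1, the members with the most GC, had an r of 0.732. The 5 genes most like Cat among 13661 others were Eloa (0.959), Ddx17 (0.958), Adam17 (0.958), Parp14 (0.951) and Naip5 (0.950), the same 5 as when libraries were scaled by their totals alone. Those most like Nqo1 were 6030458C11Rik and Oma1 (0.874 each), M6pr (0.872), Ddx59 and C920009B18Rik (0.871 each), of which 1 stayed among the 5 under the other scaling. No member is among these, and the values are descriptions over libraries that share depth, scaling and GC trend.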

How the data were processed

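The deposited values are whole read counts per gene for each library, without normalization. The submitters' processing notes name Trimmomatic 0.36, STAR 2.5.2b, featureCounts of Subread 1.5.2 and the build GRCm38; the methods state that reads were aligned to a mouse reference, which limits signal from K562 RNA, and the strand setting is not given in the sources used here. From these counts, genes were filtered (filterByExpr, minimum count 10, minimum total count 15), scaled by TMM and compared with the quasi-likelihood test of edgeR 4.0.16 in R 4.3.3, on the libraries of each comparison, with Benjamini-Hochberg adjustment over all genes tested (threshold 0.05). Each standard error (SE) from edgeR is the absolute log2 fold change divided by the square root of the F statistic of that test. Alternatives were DESeq2 1.42.0, its size factors, library totals, no filter, a single fit of all 18 libraries, the replicate number as a block, each library left out, and an offset that removed a smooth trend with GC content and gene length from each library (mgcv 1.9.3). Some of these settings were tried on counts simulated for the genotype comparison with ACs, with a common dispersion and no GC or length trend. Those counts are thus unlike these libraries in that respect. Gene symbols, GC content and lengths came from GENCODE M21, which shares 48970 identifiers. The members and lists were chosen with earlier results of these data known. All members are named, with statistics for those called in a comparison or, if none was, for the one with the smallest p; from other lists the called genes are named, and genes like Cat and Nqo1 by highest r on log2 CPM (prior count 2). The level of 1 B cell marker is not reported here.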

Additional observations from a re-analysis of the deposited data

Results flagged for a closer look

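The change from untreated to NACs differed between the genotype labels for 7 of the 10 genes, beside 34.8% of all genes tested, by a test of the difference itself (edgeR interaction term, 3 libraries per group). The difference of log2 fold changes, HDAC3 KO minus WT, was 4.02 for Cat, 2.84 for Txnrd1, 2.66 for Gclm, 2.62 for Nfe2l2, 2.28 for Gclc and 2.19 for Prdx1, and -2.03 for Keap1. In WT these 6 genes had fitted changes with NACs from -1.72 (Cat) to -0.62 (Gclc) and Keap1 one of 1.06. In HDAC3 KO the 6 had changes from 1.07 (Prdx1) to 2.17 (Cat) and Keap1 one of -1.08. The GC slopes of the libraries moved with the same contrast, and with the GC and length offset 4 of the 7 were called (Cat, Txnrd1, Gclm and Gclc), beside 13.3% of genes. Over the 8 alternative settings Nfe2l2 came as low as 1.13 and Prdx1 as low as 0.49, and Keap1 moved up to -0.59. With 1 library left out, Prdx1 was called in 5 of 12 fits and Gclc in 9.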

How the results depend on the processing

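The number of members called depended on the processing, and percentages after a count give the genes called of all tested in that fit. In the interaction of genotype with NACs or no treatment it was 7 (34.8%), and 4 with the GC and length offset, with or without the replicate block (10.5% and 13.3%); other alternatives gave 6 or 7, and leaving out a library 5 to 7. Untreated, the 3 genotype calls (11.6%) became 6 with library totals (19.9%), 5 with DESeq2's test (13.3%), 2 without the filter (5.69%) or with the block (11%), and 0 with the offset, with or without the block, and 0 to 7 with a library left out. With NACs, the 1 genotype call (0.864%) became 2 with DESeq2's test (1.86%) or the replicate block (1.82%), 3 without the filter (2.28%), 0 in one fit of all 18 libraries and 0 with the offset, with or without the block (0 to 5 with a library left out). With ACs, 0 (3.75%) became 1 with DESeq2's test (5.6%) and with the offset, with or without the block (3.83% and 10.4%; 0 to 1 with a library left out). For NACs against untreated, the 1 call in WT (8.52%) became 2 with DESeq2's size factors (9.18%) or test (6.23%), 3 with the block (15%), and 0 with library totals, one fit of all libraries or the offset (0 to 6), and the 4 in HDAC3 KO (6.54%) became 6 with DESeq2's test (8.79%), 5 with library totals (17.4%) or without the filter (6.3%), 3 in one fit of all libraries (6.2%) and 0 with DESeq2's size factors, the block, the offset or both together (0 to 6). DESeq2 gave 1 call for genotype over all treatments and 2 for the interaction with ACs or no treatment (0 and 0 to 2 with a library left out). ACs against NACs in HDAC3 KO and its interaction each ranged from 0 to 2, and the remaining comparisons stayed at 0; for ACs against untreated in HDAC3 KO DESeq2 gave an adjusted p to 2 of the 10 members. For the members called in a comparison, or the one with the smallest p where none was, the sign held in every alternative; others changed sign, such as Srxn1 and Slc7a11 in the NACs interaction with the offset. Same-numbered replicates did not pair by the rule used (correlations of their deviations from -0.33 to 0.461). Those deviations also carry the GC trend of each library, so the rule cannot show whether 1 animal gave several treatments. The block is given as an alternative only, not as a known paired design. Library totals moved the median of all genes, in the NACs interaction from 0.12 to 0.70, and DESeq2's size factors moved it to -0.27; untreated between genotypes it went from 0.06 to -0.42 and 0.19. The number of genes called moved by more than 1.5 times in 104 of 211 alternative fits: in the NACs interaction 4530 became 1735 with the offset, untreated 1404 became 3299 with DESeq2's test and 0 with the offset, with NACs 103 became 469 and 1, with ACs 461 became 1365 and 1284, and for NACs against untreated 1015 in WT became 1630 and 0, and 794 in HDAC3 KO 2063 and 0. With a library left out, the genes called between genotypes ranged from 0 to 1693 with ACs, 0 to 5887 untreated and 0 to 3121 with NACs. For ACs against NACs in HDAC3 KO, 904 became 0 to 3013 in such fits. The levels of Nqo1 and Slc7a11 rest on as few as 1 and 6 counts in a library. The causes were not tested.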
